A study of Homo sapiens with 10 samples.

Results

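Cytosolic ribosomal proteins were compared between EA.hy926 and HMEC-1, a pair of human endothelial cell lines, by mRNA sequencing. The members were the protein-coding genes named RPS or RPL with a number and, in some, a final A or X, together with RPSA, RPLP0, RPLP1 and RPLP2. This rule found 77 of the 60448 genes listed, 31 of the small subunit (RPS genes and RPSA) and 46 of the large subunit (RPL and RPLP genes). It used the symbols and no measured value. All 77 had enough counts to be tested.

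Each line was sequenced in 5 replicates, untreated and of genotype WT in the labels. EA.hy926 was made by fusing umbilical vein endothelial cells with the lung carcinoma line A549, and was grown in Advanced DMEM with fetal bovine serum. HMEC-1 derives from microvascular endothelium of the skin, immortalized by the SV40 large T antigen. It was grown in MCDB 131 with serum at a higher percentage than for EA.hy926, epidermal growth factor and hydrocortisone. L-glutamine, gentamicin and penicillin were in the media of both lines. Line and medium cannot be told apart here, and the replicates are cultures of one line each, so p-values measure the spread between these samples only. A difference in the RNA per cell cannot be told apart from a difference in the proportions of cell states within a culture.

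Total counts ranged from 33391640 to 43877224 per library. A log2FC is positive where expression was higher in EA.hy926, and a gene was called where the adjusted p of edgeR's quasi-likelihood test, with Benjamini-Hochberg adjustment over the 16310 genes tested, was under 0.05. Expression is given as CPM, counts relative to the library size after TMM normalization, which serves to compare a gene between the lines and not genes with each other. The 14 endothelial markers summed to 6147 to 6908 CPM per EA.hy926 library against 2123 to 2192 CPM per HMEC-1 library, although EMCN and CLDN5 were near 0 in EA.hy926. The 8 epithelial markers summed to 1275 to 1389 against 425 to 487 CPM, with CDH1 at no more than 3 counts in any library. KRT19 and CLDN4 were lower in EA.hy926, against the direction of this sum. The 7 fibroblast and smooth muscle markers summed to 7.16 to 9.15 against 474 to 503 CPM, with DCN and LUM at no more than 3 counts and ACTA2 higher in EA.hy926, against the sum. The part of these differences in the results below was not tested.

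A ribosome consists of a small subunit, which decodes the mRNA, and a large subunit, which joins the amino acids. Each subunit is a core of ribosomal RNA with a copy of nearly every protein of that subunit. The mRNAs of ribosomal proteins are abundant in growing cells. They typically open with a C followed by a run of pyrimidines, the 5′ terminal oligopyrimidine (TOP) motif, through which mTOR signalling and LARP1 control their translation. Many ribosomal protein genes have processed pseudogenes elsewhere in the genome, from which short reads can be hard to tell apart.

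The start sites of members with the highest and lowest log2FC, and of a member without a call, are shown because the members share the TOP motif there. Each line gives 10 bases before the RefSeq start and 20 bases from it on, read 5′ to 3′ on the gene's strand of GRCh38, with a pyrimidine run of at least 5 bases that opens with C near the start in capitals.
RPS23, chr5:82278335-82278364, minus strand: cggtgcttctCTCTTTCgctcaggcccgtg
RPSA, chr3:39406710-39406739, plus strand: tgccgcctgtCTTTTCCgtgctacctgcag
RPL39, chrX:119791611-119791640, minus strand: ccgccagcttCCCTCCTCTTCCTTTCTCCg
RPLP1, chr15:69452808-69452837, plus strand: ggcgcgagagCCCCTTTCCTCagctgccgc
RPS4X, chrX:72277229-72277258, minus strand: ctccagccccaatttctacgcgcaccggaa
RPL11, chr1:23691796-23691825, plus strand: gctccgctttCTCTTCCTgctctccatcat
RPS6, chr9:19380217-19380246, minus strand: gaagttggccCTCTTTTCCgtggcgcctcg
RPS18, chr6:33272065-33272094, plus strand: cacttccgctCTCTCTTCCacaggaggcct
RPL21, chr13:27251548-27251577, plus strand: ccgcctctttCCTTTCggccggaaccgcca
RPS26, chr12:56041908-56041937, plus strand: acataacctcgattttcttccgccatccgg
RPL9, chr4:39458903-39458932, minus strand: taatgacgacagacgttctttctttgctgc
A TOP run stood at the RefSeq start of members that were higher in EA.hy926 (RPS23, RPSA, RPL39, RPLP1), of one without a call (RPL11) and of members that were lower (RPS6, RPS18, RPL21). No such run was found at the start of RPS4X, which was higher, or of RPS26 and RPL9, which were lower. In RPS26 and RPL9 such a run opens more than 5 bases past the start and is not in capitals. RefSeq gives further starts for RPL11, and the one with the run at the start itself is shown.

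Ribosomal protein genes took a larger part of the counts in EA.hy926. Their share of the library was 6.27%, 6.52%, 6.10%, 6.28% and 6.27% in EA.hy926 replicates 1 to 5 and 4.53%, 4.77%, 4.37%, 4.39% and 4.36% in HMEC-1 replicates 1 to 5. Every EA.hy926 library lay above every HMEC-1 library. The mean was 6.29% ± 0.151 against 4.48% ± 0.174 (SD, n = 5 each), a difference of 1.80 percentage points or 1.40-fold. The small subunit genes held 2.30% ± 0.0629 against 1.58% ± 0.0714 and the large subunit genes 3.99% ± 0.0886 against 2.90% ± 0.103. Genes of the mitochondrial genome, which do not code for cytosolic ribosomal proteins, held 1.73% ± 0.0784 in EA.hy926 and 1.94% ± 0.163 in HMEC-1, ranges that overlapped.

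**Figure D1:**
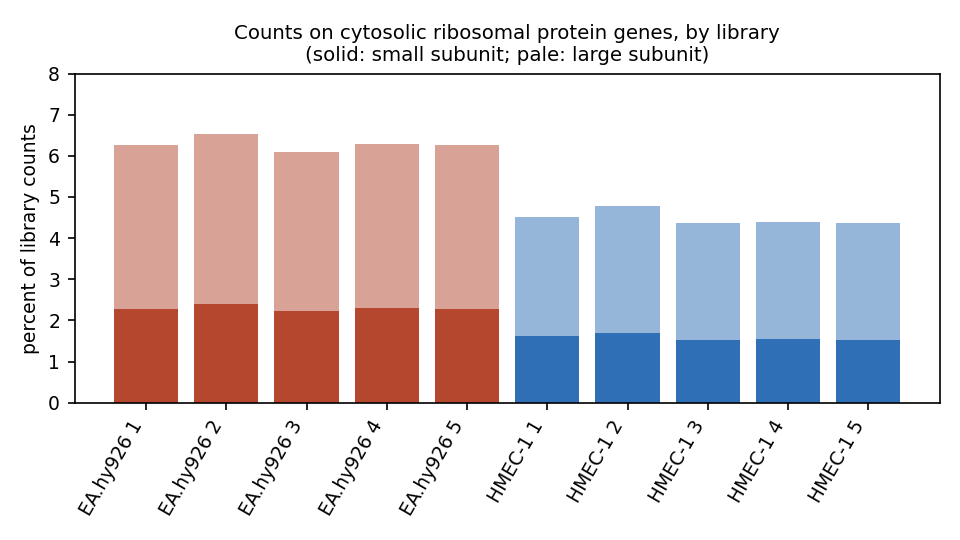
Percent of all counts of a library that fell on the 77 ribosomal protein genes, one bar per library (red EA.hy926, blue HMEC-1), with the small subunit in solid and the large subunit in pale colour. The EA.hy926 bars reach 6.10% to 6.52% and the HMEC-1 bars 4.36% to 4.77%.

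In each line, replicate 2 stood above the rest. Its CPM was the highest of the 5 for 62 members in EA.hy926 and for 69 in HMEC-1. Without both of these libraries the difference in the share of counts was 1.82 percentage points and the median log2FC of the members 0.58.

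Of the 77 members, 63 were higher in EA.hy926, where 42.6% of all genes tested were called higher and 85.8% were called in either direction. Lower expression was found for 7 members, against 43.3% of all genes, and 7 members were not called. The median log2FC was 0.57, which is 1.48-fold, with quartiles of 0.26 and 0.83, against -0.010 for all genes tested. With a log2FC over 1 as well, 12 members were past both thresholds, all of them higher. Of all genes, 19.1% were higher and 16.4% lower past both thresholds. The members stood close together, with 57 of them within 0.5 of their median log2FC and 33 within 0.25. The small subunit had 25 members higher, 3 lower and a median log2FC of 0.57, and the large subunit 38 higher, 4 lower and a median of 0.55. The CPM of 56 members was higher in every EA.hy926 library than in any of HMEC-1, and that of 5 members was lower, where 38.3% and 39.2% of all genes were. Scaling by library totals alone, without TMM factors, moved the log2FC of all genes by a median of -0.13. The median of the members was then 0.43, and 7 of them were past both thresholds.

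**Figure D2:**
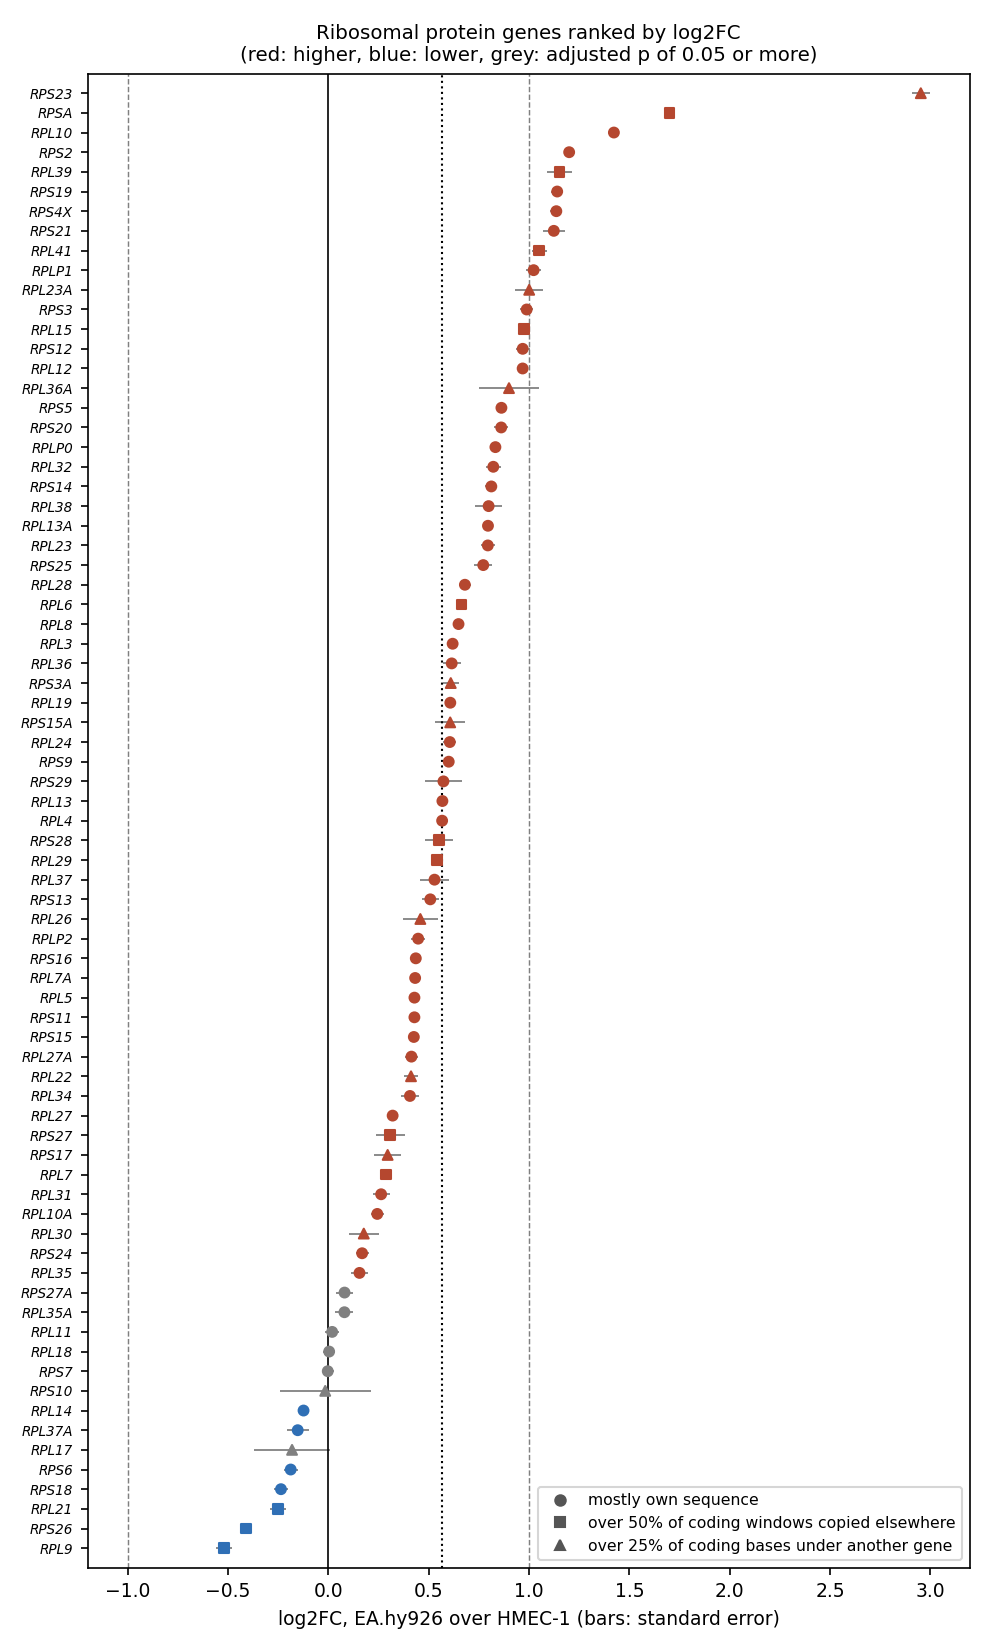
The members reported here ranked by log2FC of EA.hy926 over HMEC-1 with standard errors, red where higher, blue where lower and grey where not called. Squares mark members with over 50% of their coding sequence copied elsewhere, triangles those with over 25% of it under exons of another gene, the dotted line the median of 0.57 over all 77 members and the dashed lines the fold change threshold. Most points lie between 0 and 1, and RPS23 at 2.95 lies far to the right.

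On the small subunit, RPS2, RPS3, RPS15 and RPS23 lie along the path of the mRNA, and all of them were higher in EA.hy926. So were 63 of all 77 members and 42.6% of all genes tested. RPS2 and RPS3 line the mRNA entry, and RPS23 reaches the decoding centre. RPS2 was measured at 2804, 2823, 2741, 2903 and 2827 CPM in the EA.hy926 libraries and at 1277, 1288, 1212, 1191 and 1169 CPM in those of HMEC-1. All EA.hy926 values were above all HMEC-1 values, and the log2FC was 1.20 (SE 0.0280, adjusted p = 6.3e-20 by edgeR). Counts of annotated RPS2 pseudogenes came to 12.5% of those of RPS2 in EA.hy926 and 25.8% in HMEC-1, and with them added the log2FC was 1.04. RPS3 had a log2FC of 0.99, just under the fold change threshold, with 2028 ± 102 CPM against 1022 ± 37.5 CPM. RPS15 was higher by 0.43 on the log2 scale.

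RPS23 differed most of all members. Its CPM was 112.5, 120.5, 110.9, 104.0 and 111.0 in EA.hy926 and 14.3, 16.0, 14.2, 13.7 and 14.0 in HMEC-1. The lines were far apart, with a log2FC of 2.95 (SE 0.0441, adjusted p = 3.08e-23 by edgeR), 7.74-fold. RPS23 received 3896 to 4157 counts in the libraries of EA.hy926 but 500 to 657 in those of HMEC-1. Of its coding bases, 54.1% lie under exons of ATG10 on the opposite strand, an autophagy gene that had 323 to 351 counts in EA.hy926 libraries against 247 to 353 in HMEC-1 libraries. Whether the counting used the strand is not given in the sources used here, so reads of RPS23 and ATG10 cannot be told apart with certainty. Of all counts on ribosomal protein genes, RPS23 took 0.169% in EA.hy926 and 0.0337% in HMEC-1. RPS15, with a coding sequence of similar length, took 0.994% and 1.14%. The counts of RPS23 were thus low in both lines, and the size of its difference is uncertain. With pseudogene counts added, the log2FC of RPS23 was 2.85.

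RPSA, the laminin receptor precursor and a protein of the solvent side of the small subunit, was the next in order. It was measured at 2458, 2560, 2415, 2457 and 2459 CPM in EA.hy926 and at 765, 801, 746, 758 and 731 CPM in HMEC-1. The ranges were wide apart, with a log2FC of 1.70 (SE 0.0265, adjusted p = 6.13e-23 by edgeR). Of all counts on ribosomal protein genes, RPSA took 3.75% ± 0.0315 in EA.hy926 and 1.78% ± 0.0257 in HMEC-1. Of its coding sequence, 68.1% is found elsewhere in the genome in stretches of 100 bases, and the log2FC was 1.59 with pseudogene counts added.

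Several other proteins of the small subunit were also past both thresholds. RPS19, a protein of the head that is mutated in Diamond-Blackfan anaemia, was measured at 1195, 1218, 1146, 1216 and 1165 CPM in EA.hy926 and at 549, 575, 535, 533 and 502 CPM in HMEC-1. RPS4X, the X-linked form of a protein of the body, had 1249, 1283, 1186, 1237 and 1225 CPM against 567, 594, 558, 568 and 525 CPM. RPS21, a short protein of the small subunit, had 375, 403, 357, 349 and 362 CPM against 173, 203, 157, 158 and 157 CPM. For each of these genes the lines did not overlap, and the log2FC was 1.14 for RPS19, 1.14 for RPS4X and 1.12 for RPS21. No stretch of 100 coding bases of RPS19, RPS4X or RPS21 was found elsewhere in the genome.

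Other proteins of the small subunit were lower or not called. RPS6, the substrate of the S6 kinases, was measured at 887, 961, 850, 850 and 845 CPM in EA.hy926 and at 1007, 1078, 950, 980 and 987 CPM in HMEC-1. One EA.hy926 library lay within the range of HMEC-1, and the log2FC was -0.19 (SE 0.0358, adjusted p = 5.83e-05 by edgeR). RPS27A, which is made as a fusion with ubiquitin, had 581 ± 25.2 CPM against 549 ± 43.4 CPM, and its log2FC of 0.081 was not called (adjusted p = 0.0760 by edgeR). It was called without EA.hy926 replicate 5 (adjusted p = 0.0351) and without HMEC-1 replicate 2 (adjusted p = 0.00246). RPS28, a short protein of the head near the mRNA exit, was higher by 0.55 on the log2 scale, though its whole coding sequence is found elsewhere and its pseudogenes had 296% of its own counts in EA.hy926 and 306% in HMEC-1. RPS18, a protein of the head, was lower with 761, 772, 711, 726 and 742 CPM against 895, 959, 845, 830 and 842 CPM. The lines did not overlap for RPS18, and the log2FC was -0.24 (adjusted p = 2.2e-06 by edgeR).

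RPS26, which lies at the mRNA exit and contacts the bases before the start codon, had the lowest log2FC of the small subunit. It was measured at 285, 289, 303, 299 and 296 CPM in EA.hy926 and at 397, 401, 396, 393 and 371 CPM in HMEC-1. All values of EA.hy926 were under all those of HMEC-1, with a log2FC of -0.41 (SE 0.0263, adjusted p = 3.6e-12 by edgeR). Its whole coding sequence is found elsewhere in the genome, but pseudogene counts were only 0.67% of its own in EA.hy926 and 0.61% in HMEC-1.

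**Figure D3:**
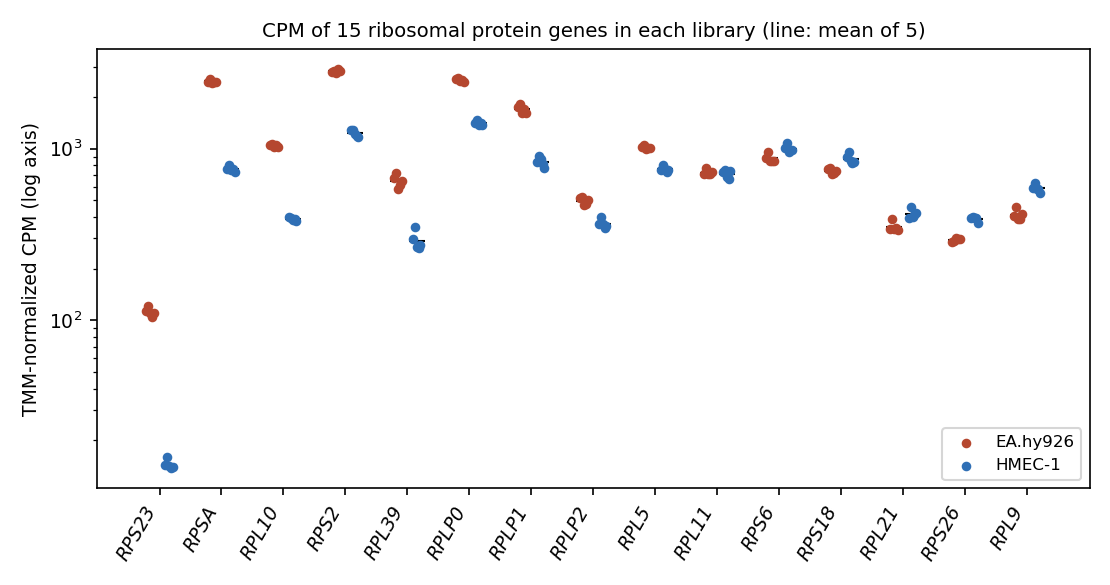
TMM-normalized CPM (log axis) of 15 ribosomal protein genes in each EA.hy926 (red) and HMEC-1 (blue) library, with the mean of the 5 as a line. RPS23 to RPL39 on the left have the highest log2FC of all members, RPLP0 to RPL11 are proteins of the stalk and of the 5S RNA complex, and RPS6 to RPL9 on the right have the lowest.

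On the large subunit, the proteins described around the catalytic centre and the subunit bridges (RPL3, RPL8, RPL10, RPL19 and RPL41) were higher in EA.hy926. So were 63 of all 77 members and 42.6% of all genes tested. RPL10, a late-joining protein next to the peptidyl transferase centre, was measured at 1056, 1071, 1023, 1048 and 1027 CPM in EA.hy926 and at 402, 393, 386, 389 and 380 CPM in HMEC-1. The gap between the lines was large beside the spread within them, and the log2FC was 1.42 (SE 0.0238, adjusted p = 2.03e-22 by edgeR). Pseudogene counts came to 5.97% of those of RPL10 in EA.hy926 but 35.2% in HMEC-1, and the log2FC with them added was 1.07. RPL41, the shortest ribosomal protein, which forms a bridge between the subunits, had 2066, 2078, 1984, 1969 and 2033 CPM against 960, 1101, 928, 965 and 935 CPM, a log2FC of 1.05. The log2FC was 0.62 for RPL3, which reaches into the peptidyl transferase centre, 0.65 for RPL8 and 0.61 for RPL19, which forms a bridge to the small subunit.

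Along the tunnel through which the new chain leaves, 6 of 7 proteins were higher, where 42.6% of all genes tested were. RPL39, a small protein in the tunnel wall, was measured at 672, 719, 583, 611 and 647 CPM in EA.hy926 and at 299, 350, 269, 264 and 273 CPM in HMEC-1. The lines did not overlap, and the log2FC was 1.15 (SE 0.0631, adjusted p = 2.33e-13 by edgeR). RPL4, whose long loop forms the tunnel's constriction, was higher by 0.57 on the log2 scale, RPL31 by 0.26 and RPL35 by 0.16. RPL23A, which docks the signal recognition particle at the tunnel exit, had a log2FC of 1.00, just over the fold change threshold. Its pseudogene counts came to 41.9% of its own in EA.hy926 and 55.6% in HMEC-1. With them added its log2FC was 0.87, under the threshold. RPL26 had a log2FC of 0.46 at only 226 to 336 counts per EA.hy926 library, and its lines overlapped. Of its coding bases, 71.0% lie under exons of another gene. Its pseudogenes had 109% of its own counts in EA.hy926 and 116% in HMEC-1, and with them added its log2FC was 0.41.

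RPL17, the last of the tunnel proteins, was not called, its log2FC being -0.18 at 0.947 ± 0.222 against 1.07 ± 0.189 CPM (adjusted p = 0.372 by edgeR). All of its coding bases lie under exons of the readthrough gene RPL17-C18orf32, which was listed at 0 counts, and the libraries held 27 to 43 counts of RPL17 in EA.hy926 against 38 to 54 in HMEC-1. Its pseudogenes had 5684% of its own counts in EA.hy926 and 3572% in HMEC-1, and with them added its direction turned, to a log2FC of 0.48 (adjusted p = 3.8e-06 by edgeR). The value of RPL17 is therefore uncertain. The same holds for RPS10, whose coding sequence lies to 92.1% under RPS10-NUDT3 and which had 23 to 59 counts in EA.hy926, and for RPL36A, with 94.3% under RPL36A-HNRNPH2 and 99 to 137 counts. Both readthrough genes were listed at 0 in all libraries.

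The P stalk, a lateral protuberance that recruits and activates elongation factors, is built of RPLP0 with RPLP1 and RPLP2. RPLP0 was measured at 2547, 2565, 2468, 2525 and 2444 CPM in EA.hy926 and at 1408, 1462, 1379, 1418 and 1380 CPM in HMEC-1. RPLP1 had 1753, 1812, 1614, 1707 and 1616 CPM against 833, 900, 865, 815 and 771 CPM. RPLP2 had 516, 519, 471, 474 and 500 CPM against 362, 398, 362, 344 and 353 CPM. All of the stalk genes were higher in EA.hy926 without overlap between the lines. The same held for 56 of all 77 members and for 38.3% of all genes tested. The log2FC was 0.83 for RPLP0 (SE 0.0237), 1.02 for RPLP1 (SE 0.0378) and 0.45 for RPLP2 (SE 0.0362), and the differences between these genes were not tested.

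RPL5 and RPL11, which enter the large subunit together with the 5S ribosomal RNA and bind MDM2 when assembly fails, differed in their calls, a contrast that was not itself tested. RPL5 was measured at 1029, 1053, 1000, 1015 and 1003 CPM in EA.hy926 and at 748, 800, 761, 730 and 748 CPM in HMEC-1, with no overlap and a log2FC of 0.43 (SE 0.0261, adjusted p = 1.45e-12 by edgeR). RPL11 was measured at 710, 768, 709, 712 and 726 CPM and at 734, 753, 680, 666 and 743 CPM, ranges that overlapped. Its log2FC of 0.019 was not called (SE 0.0335, adjusted p = 0.598 by edgeR), and scaling by library totals turned it to -0.12 (adjusted p = 0.00272 by edgeR).

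RPL9, which lies at the base of the stalk, had the lowest log2FC of all members. Its CPM was 407, 456, 389, 388 and 415 in EA.hy926 and 593, 634, 583, 584 and 551 in HMEC-1. Every HMEC-1 value was above every EA.hy926 value, and the log2FC was -0.52 (SE 0.0400, adjusted p = 8.39e-11 by edgeR), 1.43-fold lower in EA.hy926. RPL21, with 133 annotated pseudogenes the most of any member, had 342, 390, 341, 344 and 334 CPM against 393, 455, 401, 409 and 423 CPM, without overlap, and a log2FC of -0.25. RPL37A and RPL14 were lower by less, with log2FC of -0.15 and -0.12. The call of RPL37A was lost when EA.hy926 replicate 3 was left out (adjusted p = 0.0503 by edgeR) and with DESeq2 (adjusted p = 0.0830). Of the remaining members without a call, RPL18 had a log2FC of 0.004 and RPS7 of -0.003, and scaling by library totals moved them to -0.13 and -0.14, past the test's threshold. RPL35A had a log2FC of 0.080 and was called without EA.hy926 replicate 3 (adjusted p = 0.0354 by edgeR) or HMEC-1 replicate 2 (adjusted p = 0.00252).

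The members not named so far were all called higher. RPL15 and RPS12 came close to the fold change threshold with log2FC of 0.98 and 0.97, and RPS24, whose lines overlapped, had a log2FC of 0.17 that fell to 0.034 and lost its call with library totals (adjusted p = 0.291 by edgeR). RPL30 was called narrowly (log2FC 0.18, adjusted p = 0.0332 by edgeR) and lost its call when any of EA.hy926 replicates 1, 2 and 5 or HMEC-1 replicates 1, 3 and 4 was left out, with adjusted p of 0.0620 to 0.156. It also lost its call with DESeq2 (adjusted p = 0.105) and with library totals (log2FC 0.042, adjusted p = 0.596 by edgeR).

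The counts were also taken by how much of a member's sequence is its own. Among the 53 members with at most 25% of their coding bases under exons of other genes and at most 50% of their coding sequence copied elsewhere, 44 were higher and 4 lower, with a median log2FC of 0.57. Of the 13 members with more copied sequence 10 were higher and 3 lower (median 0.55), and of the 11 with more overlap 9 were higher and none lower (median 0.46). Of all genes tested, 42.6% were higher and 43.3% lower. The 1586 annotated pseudogenes of the members together held 0.251% ± 0.00922 of the counts in EA.hy926 and 0.206% ± 0.00996 in HMEC-1.

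The median coefficient of variation of the CPM was 3.72% in EA.hy926 and 5.20% in HMEC-1. Among members with at least 1000 counts in every library, it was 10.6% for the 9 with under 300 coding bases, and 3.86% for the 62 longer ones. The ranges overlapped, from 4.80% to 15.6% for the short members, with RPL41 the lowest of them, and from 1.54% to 11.8% for the longer ones, and the difference was not tested.

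Near their start, 53 of the 62 members with a RefSeq window (85.5%) had a C followed by at least 4 pyrimidines within 5 bases of an annotated start, against 29.7% of 10577 protein-coding genes tested. At the start itself the motif was found for 74.2% of the members and 7.46% of the genes. Of the 53 members with the motif 42 were higher and 5 lower (median log2FC 0.57), and of the 9 without it 6 were higher and 2 lower (median 0.43). Among all genes tested, 42.6% were higher and 43.3% lower. By this limit of 5 bases, members with and without a TOP start were found in both directions. The 2 lower members without it, RPS26 and RPL9, have such a run just past the limit, so their place depends on the limit and the annotated start. In the window from 250 bases before to 50 bases after the start, searched on both strands, the ETS-type motif CCGGAAG was present in 35.5% of the members and 21.9% of the genes. The E-box of MYC and MAX (CACGTG) was present in 6.45% of the members and 12.5% of the genes. The TATA box was searched as TATAAA and was present in 3.23% and 5.60%. The reverse complement of CCGGAAG opens with CTTCC, which is itself a run of the TOP form, so these matches can share bases.

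Several ribosomal proteins have a close paralog that can take their place. RPL39L, which is best known from the testis, was lower in EA.hy926 (9.08 ± 1.06 against 21.7 ± 0.945 CPM, log2FC -1.26), while RPL39 was higher. It made 1.19%, 1.48%, 1.43%, 1.49% and 1.33% of the counts of both genes in the EA.hy926 libraries and 6.91%, 6.11%, 7.24%, 7.20% and 7.47% in those of HMEC-1. RPS27L, a p53 target, was higher (344 ± 20.1 against 105 ± 6.46 CPM, log2FC 1.71). Its part of the counts of RPS27 and RPS27L was 49.0%, 50.5%, 50.0%, 50.4% and 48.2% in EA.hy926 and 26.9%, 24.4%, 28.7%, 28.6% and 28.2% in HMEC-1. The lines did not overlap in either pair. The whole coding sequence of RPL39 and of RPS27 is found elsewhere in the genome in stretches of 100 bases. Their reads can thus be hard to tell apart from those of copies, which limits the shares of both pairs. With pseudogene counts added, the log2FC was 1.16 for RPL39 and 0.31 for RPS27, and the shares were not recomputed.

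RPL22L1 was higher, with a log2FC of 0.75, and made 5.58% ± 0.398 against 4.46% ± 0.229 of the counts of its pair. Of the coding sequence of RPL22, 67.0% is copied elsewhere and 59.9% lies under another gene, which limits the share of this pair as well. RPL7L1, which acts in ribosome assembly, was lower with a log2FC of -1.04. RPL26L1 had a log2FC of -0.83 and RPL36AL of 0.34, but their partners RPL26 and RPL36A had few counts, as described above, so the shares of these pairs cannot be read as shares of the proteins. RPL10L was listed at 0 in all libraries and RPL3L at 3 to 9 counts. FAU, which is made as a fusion with a ubiquitin-like protein, and the signalling scaffold RACK1 both belong to the ribosome although their names do not show it, and were higher with log2FC of 0.41 and 0.26.

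**Figure D4:**
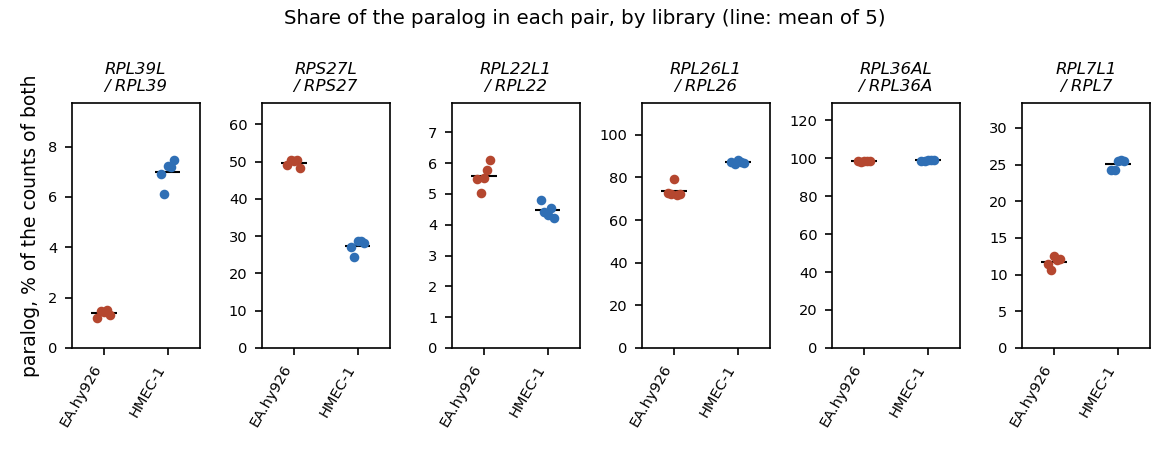
Counts of a paralog as percent of the counts of the paralog and its ribosomal protein partner, in each EA.hy926 (red) and HMEC-1 (blue) library with the mean of the 5 as a line and each axis starting at 0. RPL39L made 1.19% to 1.49% of its pair in EA.hy926 against 6.11% to 7.47% in HMEC-1, and RPS27L 48.2% to 50.5% against 24.4% to 28.7%.

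Other mRNAs with a TOP motif were compared as well. Of 19 translation factors and other TOP mRNAs tested, 16 were higher and 2 lower, with a median log2FC of 0.40, where 42.6% of all genes tested were higher and 43.3% lower. The same background applies to the lists that follow. The largest values among those called were those of NAP1L1, a histone chaperone (log2FC 1.57), VIM, the intermediate filament vimentin (1.36), and EEF1A1, which brings aminoacyl-tRNA to the ribosome (1.24). EEF1A1 alone held 1.80% ± 0.0275 of the counts in EA.hy926 and 0.838% ± 0.0177 in HMEC-1. EEF1G was listed at 0 in all libraries, and whether this reflects its expression or the counting was not tested. Of 12 non-coding snoRNA host genes with a TOP motif, 9 were higher and 2 lower (median 0.50), with SNHG5 at 182 ± 11.1 against 16.5 ± 0.895 CPM (log2FC 3.47), EPB41L4A-AS1 at 2.12 and ZFAS1 at 1.48.

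Factors that assemble ribosomes were called in both directions. Of 18 factors of the small subunit, 13 were higher and 4 lower, with a median log2FC of 0.33. PWP2, a subunit of the early processome, had 6.11 ± 1.46 against 0.301 ± 0.141 CPM (log2FC 4.32), NOB1, the nuclease that trims the small ribosomal RNA, a log2FC of 0.94 and the kinase RIOK1 one of -0.93. Of 21 factors of the large subunit, 14 were higher and 7 lower (median 0.27). RRS1, which helps to bring in RPL5 and RPL11, had a log2FC of 1.71 and EIF6, which keeps the subunits apart, of 1.40, while SBDS, which helps to release EIF6, was lower with -1.13 (54.7 ± 1.20 against 119 ± 4.79 CPM). Of 10 chaperones and factors around RPL5 and RPL11, RRS1 among them, 3 were higher and 6 lower (median -0.20), with HEATR3, an importer of RPL5, at -0.61 and PDCD2L at 0.59.

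RNA polymerase I, which makes ribosomal RNA, showed no common direction, with 5 of 14 subunits and factors higher, 6 lower and a median log2FC of -0.060. POLR1E had the lowest value (-0.98), followed by POLR1H (-0.65) and TAF1B (-0.63). The oligo(dT) selection leaves ribosomal RNA itself unmeasured. The proteins of the mitochondrial ribosome, which are coded in the nucleus too, had 24 of 77 tested genes higher and 45 lower, against 42.6% and 43.3% of all genes, with a median log2FC of -0.17. Their largest values were those of MRPL15 (1.56), MRPS6 (1.52) and MRPS35 (1.48), and MRPL14 had the lowest (-1.25).

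**Figure D5:**
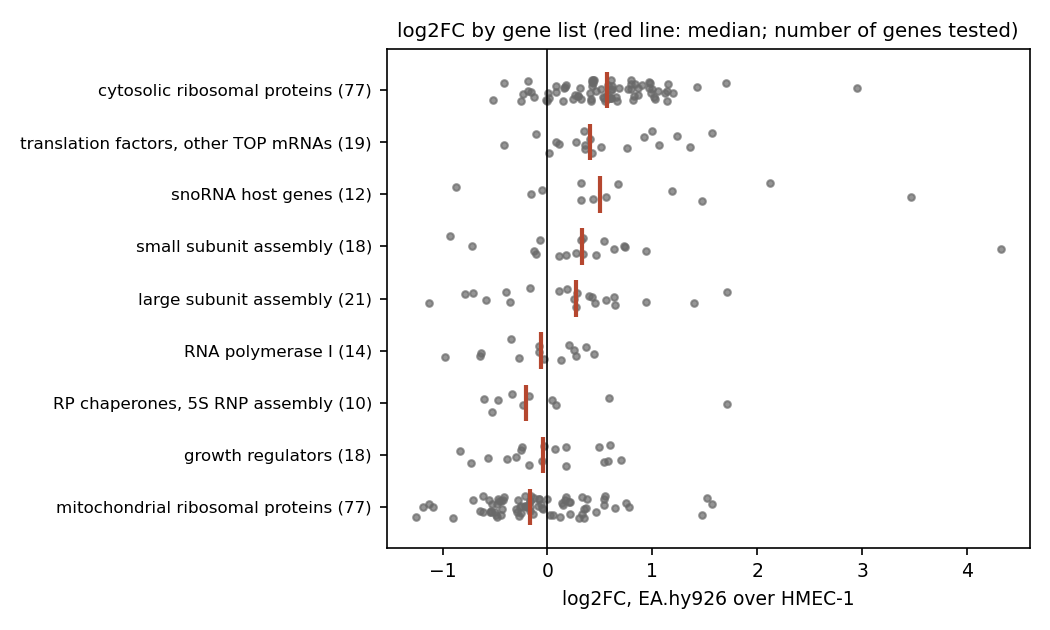
The log2FC of EA.hy926 over HMEC-1 of each gene tested in the ribosomal protein genes and in 8 related lists, with the number of genes and the median as a red line. The medians run from 0.57 for the cytosolic ribosomal proteins to -0.17 for the mitochondrial ones and -0.20 for the chaperones.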

How the data were processed

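The authors purified mRNA on oligo(dT) beads, had it sequenced by Illumina, used HISAT2 and GRCh38 for alignment, and deposited raw counts per gene. The paper's methods name HTSeq for the counting and the submitters' processing notes fastp, featureCounts and DESeq2, and the annotation release and strand setting are not given in the sources used here. GENCODE 44 matched 56434 of 60448 identifiers and gave symbols and exons. The quasi-likelihood test of edgeR 4.0.16 (glmQLFTest, R 4.3.3) was run without covariates on TMM-scaled counts of genes kept by filterByExpr at a minimum count of 10 and a total of 15. The standard error of a log2FC is its size over the square root of F. Pseudogenes were those annotated with a member's symbol, P and a number. Copied sequence is the percent of 100-base windows of the coding sequence found elsewhere in the genome, and the limits of 25% overlap and 50% copied sequence were set after the values were seen. Overlaps of coding bases with exons of other genes were counted base by base in GENCODE 44. Promoter windows came from RefSeq (GRCh38.p14), and tables were made with pandas 2.3.3. The members and gene lists were chosen with earlier results of these data known. Named were the 5 highest and 5 lowest members by log2FC, up to 10 past both thresholds, members with a role fixed beforehand and the 3 called genes of largest absolute log2FC in each list. The other members and list genes named were chosen after their values were seen. The test was tried on simulated counts. The alternatives were DESeq2 1.42.0, limma-voom (limma 3.58.1), RLE factors, library totals, TMM factors without the members, no filter, 10 counts in every library, pseudogene counts added, a replicate block, a lowess curve on exon length taken off and each library left out. Leaving out replicate 2 of both lines was added after seeing the data. Reads carry no molecular identifiers, and no intervals are given. Some genes are not reported here by name, although they enter the counts and medians.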

Additional observations from a re-analysis of the deposited data

Results flagged for a closer look

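In 6 of 72 groups of 5 libraries examined, 1 library stood apart from the other 4 by more than 0.71 of the group's range, Dixon's limit for 5 samples, which chance passes in about 5% of groups. In HMEC-1, replicate 2 was the high value for RPS23 (16.0 CPM, the others 13.7 to 14.3), RPL41 (1101 CPM, the others 928 to 965) and RPL22 (448 CPM, the others 385 to 402). Replicate 5 was the low value for RPS26 (371 CPM, the others 393 to 401) and RPL8 (834 CPM, the others 881 to 896). In EA.hy926, replicate 2 was the high value for RPL21 (390 CPM, the others 334 to 344).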

How the results depend on the processing

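When single libraries were left out, 62 to 65 members were higher, 6 to 7 lower and 10 to 13 past both thresholds, the median log2FC was 0.51 to 0.58 and the difference in the share of counts 1.75 to 1.88 percentage points. Scaled by library totals without TMM factors, 59 members were higher and 10 lower, 7 were past both thresholds, the median was 0.43 RPL11 turned to -0.12 and RPS27A, which was not called, to -0.054. Adding pseudogene counts turned RPL17 to 0.48. RPL11, not called, also turned to -0.0014 without the filter, to -0.0089 and -0.019 without HMEC-1 replicates 3 and 4 (range without each library -0.019 to 0.032) and to -0.019 with a curve on exon length taken off. The cause was not tested. Over all genes, deviations of replicates with the same number correlated by -0.023 to 0.039, and 2 of 5 matched best with their own number. Over the members alone the correlations were -0.047, 0.544, 0.137, 0.635 and 0.272 for replicates 1 to 5. The methods name no day or batch shared by replicates with the same number. The main test therefore took them to share only a number. Replicate 2 was the highest in both lines, for 62 members in EA.hy926 and 69 in HMEC-1. Whether replicates with the same number share a batch was not tested. With the replicate block 65 members were higher, 7 lower and 12 past both thresholds, the median was 0.57, and RPS27A (adjusted p = 0.00416 by edgeR) and RPL35A (0.00765) were called. Among the 35 named members, the sign turned for RPL11, RPL17 and RPS27A as given, RPS27A gained a call in 5 refits and RPL35 lost its call with library totals. The counts of RPL17, RPS10, RPL36A and RPL26 were low in both lines, which limits their values. From 71.0% (RPL26) to 100% (RPL17) of their coding bases lie under exons of other genes. The cause of the low counts was not tested.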

Other observations

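Regulators of ribosomal protein mRNA showed no common direction between the lines. Of 18 such genes tested, 8 were higher in EA.hy926 and 8 lower, with a median log2FC of -0.039. MTOR, the kinase that promotes translation of TOP mRNAs, was lower (62.6 ± 2.15 against 111 ± 4.96 CPM, SD, n = 5 each, log2FC -0.83). EIF4EBP2, an inhibitor of the cap-binding protein EIF4E (-0.73), and LARP1, which binds the TOP motif (-0.25), were lower too. MAF1, a repressor of RNA polymerase III, was higher (log2FC 0.70), as was MYC, a transcription factor of ribosomal protein genes (131 ± 1.82 against 86.8 ± 6.24 CPM, log2FC 0.59). These adjusted p by edgeR were all under the threshold, and LARP1 and MYC were named after their values were seen.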
